A study of Mus musculus with 10 samples.

Results

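The TALE homeobox relatives of Mkx described here are the 9 genes Tgif1, Pbx3, Meis1, Meis2, Meis3, Irx1, Irx2, Irx3 and Irx5, out of 32285 genes in the count table. They were chosen by name, as TALE homeobox genes other than Mkx, with earlier results of these data known. Each matched 1 Ensembl gene identifier. The table also holds 10 TALE homeobox genes that are neither members nor Mkx. RNA came from the Achilles tendon 4 weeks after tamoxifen (20 mg/kg), which every mouse had received when 6 weeks old. Mkx-CreER/flox mice carried a CreER allele of Mkx, a source of tamoxifen-dependent Cre recombinase, together with a floxed Mkx allele, the target of that Cre (n = 3 libraries, numbered 1, 4 and 5 in the count table). Mkx-CreER/+ mice carried the CreER allele without a floxed one (n = 3, numbered 1, 2 and 4), and Mkx flox/+ mice carried a floxed allele without Cre (n = 4, numbered 1 to 4). Whether the CreER allele itself interrupts Mkx, and which exons are floxed, was not stated in the labels. The genotype label gives the floxed control as flox/+, while the series text calls it Mkx-flox without a second allele. Nothing in the labels says that the libraries of a genotype came from separate mice, so p-values measure the spread between these libraries, which may in part be technical.

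TALE homeodomain proteins are transcription factors whose DNA-binding domain carries a loop of 3 extra amino acids. Meis proteins and their relatives Pknox1 and Pknox2 bind Pbx proteins, and both kinds serve as DNA-binding partners of Hox proteins, which set position along the body and limb. Irx proteins pattern many tissues of the embryo, Tgif1 represses transcription driven by TGF-beta through Smad proteins and by retinoids, and Mkx itself (Mohawk) is a tendon factor that is needed for normal collagen fibril growth.

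The homeobox is the part of each gene that defines the family, and the windows below show a short part of it in the 9 members. Each is 27 bases of coding DNA, 5′ to 3′, read from the GENCODE vM21 transcripts of build mm10, and the capitals mark the 9 bases (codons 27 to 29 of the 63-codon homeobox) at the end of the extra loop.
Tgif1: agatacaacGCCTATCCCtcagagcaa
Pbx3: ctcagcaacCCCTACCCCagtgaagaa
Meis1: ctaacacacCCTTACCCTtctgaagaa
Meis2: ctcacacacCCGTACCCTtcagaagaa
Meis3: ctctcgcacCCGTACCCTtcagaagag
Irx1: cgcaagaacCCGTACCCCaccaaagga
Irx2: cgaaagaacCCGTACCCCaccaaggga
Irx3: cgcaagaacCCGTACCCCaccaagggc
Irx5: cgcaagaacCCGTACCCCaccaaggga
The 4 Irx windows held the same capitals, Meis2 and Meis3 shared theirs, and Meis1, Pbx3 and Tgif1 each had their own bases. The search took only windows whose capitals code for Pro-Tyr-Pro or Ala-Tyr-Pro, so likeness at these codons was set by the search. Tgif1 has Ala-Tyr-Pro. The other members all have Pro-Tyr-Pro, so their capitals differ only in bases that leave the amino acids unchanged. The windows lie on the minus strand at chr17:70846217-70846243 for Tgif1, chr2:34204825-34204851 for Pbx3, chr13:71960088-71960114 for Irx1 and chr8:91800592-91800618 for Irx3. They lie on the plus strand at chr13:72630730-72630756 for Irx2 and chr8:92359693-92359719 for Irx5. In the Meis genes the window spans a splice junction. Meis1 is a gene of chromosome 11, Meis2 of chromosome 2 and Meis3 of chromosome 7.

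Over the 189 bases of the whole homeobox, identity ran from 85.2% to 91% between Irx members and from 82% to 84.7% between Meis members. Between members of different families it ran from 45.5% to 57.1%. The longest run of identical bases shared by transcripts of a pair of members was 65 bases, in Irx2 and Irx5, followed by 50 bases in Irx3 and Irx5 and at most 32 in any other pair. The labels do not say how reads that fit several places were counted, so the split of counts between Irx2, Irx3 and Irx5 is uncertain where reads fall within those runs. Irx1 and Irx2 start 670.9 kb apart on chromosome 13, and Irx3 and Irx5 start 559.1 kb apart on chromosome 8. Of the Irx3 exon length, 4.49% overlaps Irx3os on the other strand. Of the Meis1 exon length, 8.51% overlaps Gm16140 on the other strand and 9.77% overlaps Gm37818 on the same strand. Counts in parts shared with the other strand cannot be told apart if the counting ignored strand. Those in the part shared with Gm37818 cannot be told apart by strand in either case.

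Depth was 8680934 to 22656417 counts per library, at which 3 counts correspond to 0.126 to 0.36 CPM (counts scaled to library size, after TMM normalization). These limits cover counting error only. Mkx measured 26.1, 32.4 and 30.5 CPM in Mkx-CreER/flox, 91.4, 93.8 and 93.5 CPM in Mkx-CreER/+, and 187.4, 177.4, 120.9 and 153.3 CPM in Mkx flox/+. Against both controls Mkx fell by 2.04 in Mkx-CreER/flox (log2 scale, SE 0.158, edgeR adjusted p = 0.000149). The controls themselves differed in Mkx, with no overlap in CPM and a log2 fold change of -0.78 in Mkx-CreER/+ against Mkx flox/+ (SE 0.173). That difference was not called by edgeR (adjusted p = 0.489) and was called by DESeq2 (adjusted p = 0.0289). The comparison with both controls thus averages groups with unlike Mkx levels. The 10 tendon genes were all detected, with summed levels of 23870 to 31320 CPM in Mkx-CreER/flox, 39950 to 51450 CPM in Mkx-CreER/+ and 62220 to 125600 CPM in Mkx flox/+. RNA of other tissues was present too. The 20 skeletal muscle genes took 7.56 to 11.8% of counts in Mkx-CreER/flox, 3.18 to 8.09% in Mkx-CreER/+ and 1.68 to 5.2% in Mkx flox/+, and 6 of the 20 rose against both controls with 14 not passing the test. The 14 macrophage genes summed to 826.5 to 898.3 CPM in Mkx-CreER/flox, 1168 to 2860 CPM in Mkx-CreER/+ and 1753 to 2841 CPM in Mkx flox/+, and 13 of the 14 fell against both controls. These counts depended on single libraries: edgeR called 0 of the 14 macrophage genes (13 at an unadjusted p under 0.05) without Mkx-CreER/flox 4, Mkx-CreER/+ 1 or Mkx-CreER/+ 2, 3 (14) without Mkx-CreER/flox 1 and 8 (13) without Mkx flox/+ 1. It called 0 of the 20 muscle genes without Mkx-CreER/flox 1 or 4 or Mkx-CreER/+ 1 or 2, and 2 or 3 without Mkx flox/+ 1, 2 or 3, with 7 or 8 at an unadjusted p under 0.05 in each of these fits. In the fit to all libraries, edgeR called 3.03% of all genes higher and 1.62% lower against both controls. No muscle or macrophage marker was at 0 in any library. Library Mkx-CreER/flox 1 had the highest muscle share and the highest mitochondrial share (8.85%, against 1.92 to 5.32% in the other 9). In whole-tissue RNA, fewer cells of a type and less RNA per cell cannot be told apart.

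The first question was how much of each relative the tendon holds. Levels between genes were compared as CPM per kb of exon, averaged over all 10 libraries. Tgif1 was highest at 4.13, followed by Pbx3 at 2.41, Meis3 at 1.54, Meis1 at 0.698, Meis2 at 0.594 and Irx3 at 0.354. Irx5 at 0.114, Irx2 at 0.0679 and Irx1 at 0.0231 came last. Tgif1 exceeded Pbx3 in 10 of 10 libraries, Pbx3 exceeded Meis3 in 9, and Meis3 exceeded Meis1 in 10 with no overlap of their ranges over the libraries. The rank of Meis3 rests on exon length, merged over all annotated transcripts and the same in every library. It was 3173 bases for Meis3, 10532 for Meis1 and 12043 for Meis2. In CPM, without that length, the median was 4.59 for Meis3, 7.485 for Meis1 and 6.979 for Meis2. Meis3 was then the lowest of the Meis genes. Meis1 and Meis2 could not be ordered, since Meis1 was above Meis2 in 6 of 10 libraries. Lower down, Meis2 was above Irx3 in 7 libraries, Irx3 above Irx5 in 8, Irx5 above Irx2 in 6 and Irx2 above Irx1 in 7, with ranges that overlap in each case.

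Among all 20 TALE genes of the table, the members were not the most abundant. Mkx averaged 24.6 CPM per kb over the 10 libraries. Pbx2, Pknox2 and Pknox1 averaged 3.67, 3.41 and 3.39, between Tgif1 and Pbx3. Of all 16017 tested genes, 52.6% had a lower level per kb than Tgif1, 39% a lower level than Pbx3, 28.9% a lower level than Meis3, and 7.76% a lower level than Irx3. Irx4 and Irx6, which complete the Irx clusters on chromosomes 13 and 8, had 0 counts in all 10 libraries.

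**Figure D1:**
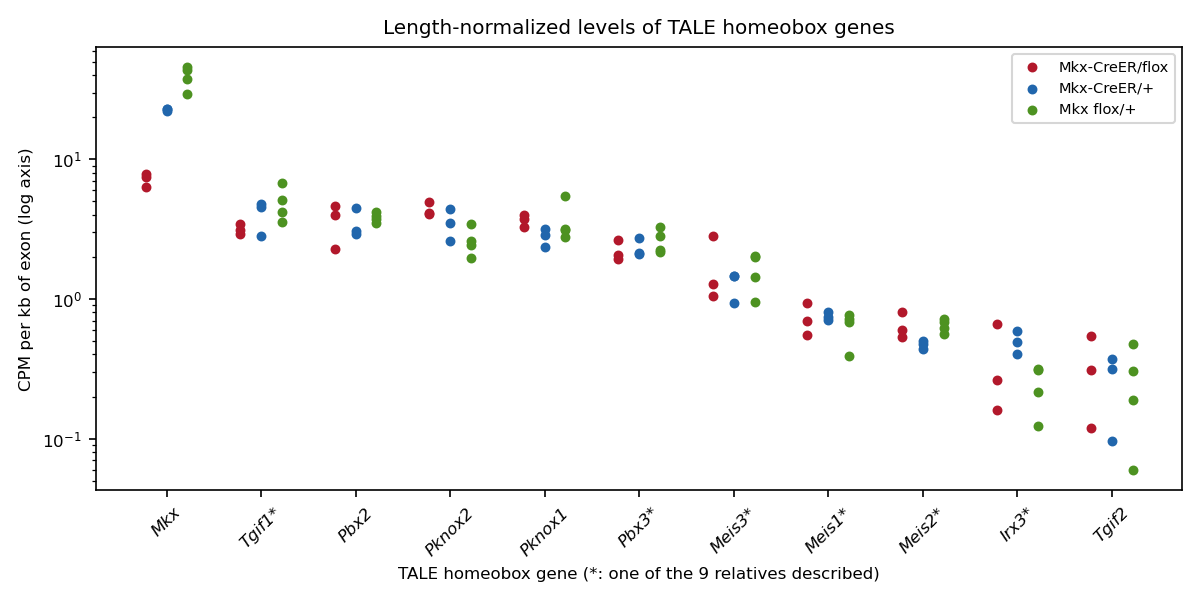
Level of the 6 tested members, Mkx, Pbx2, Pknox1, Pknox2 and Tgif2 in CPM per kb of exon (log axis), 1 point per library, with genes ordered by their mean over the 10 libraries and genotypes side by side. Tgif1 and Pbx3 lie above the Meis genes and Irx3, and Mkx is the gene whose genotypes separate most visibly.

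On average the members' part of the TALE signal was highest in Mkx-CreER/flox, where that of Mkx was lowest. Mkx is part of the sum, so a fall of Mkx raises the other shares even where levels stay the same. Of the summed CPM per kb of the 20 TALE genes, the 9 members made up 24.1% ± 2.09 (SD) in Mkx-CreER/flox with n = 3, 19% ± 2.55 in Mkx-CreER/+ with n = 3, and 16% ± 3.6 in Mkx flox/+ with n = 4. Mkx made up 19.5% ± 1.91 in Mkx-CreER/flox, 44.9% ± 1.27 in Mkx-CreER/+ and 56% ± 5.54 in Mkx flox/+. The members' own sum, on the scale of a level, was 8.93 ± 0.714 CPM per kb in Mkx-CreER/flox, 9.61 ± 1.06 in Mkx-CreER/+ and 10.9 ± 1.93 in Mkx flox/+. By family, Meis genes took 8.27% ± 1.59 of the signal in Mkx-CreER/flox, 4.94% ± 0.469 in Mkx-CreER/+ and 4.24% ± 1.21 in Mkx flox/+. Their summed level was 3.09 ± 0.793 CPM per kb in Mkx-CreER/flox, 2.5 ± 0.318 in Mkx-CreER/+ and 2.89 ± 0.612 in Mkx flox/+, with differences within those spreads. Tgif genes took 9.41% ± 0.693 of the signal in Mkx-CreER/flox, 8.57% ± 2.19 in Mkx-CreER/+ and 7.54% ± 2.11 in Mkx flox/+. Their summed level ran the other way, with 3.49 ± 0.216 CPM per kb in Mkx-CreER/flox, 4.31 ± 0.98 in Mkx-CreER/+ and 5.17 ± 1.35 in Mkx flox/+. On average the Tgif share was thus highest in Mkx-CreER/flox while the Tgif level was lowest there. Irx genes took 1.26% ± 0.745 in Mkx-CreER/flox, 1.45% ± 0.119 in Mkx-CreER/+ and 0.737% ± 0.383 in Mkx flox/+. The summed Irx level was 0.463 ± 0.265 CPM per kb in Mkx-CreER/flox, 0.735 ± 0.0863 in Mkx-CreER/+ and 0.498 ± 0.232 in Mkx flox/+. These shares and summed levels were not tested.

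**Figure D2:**
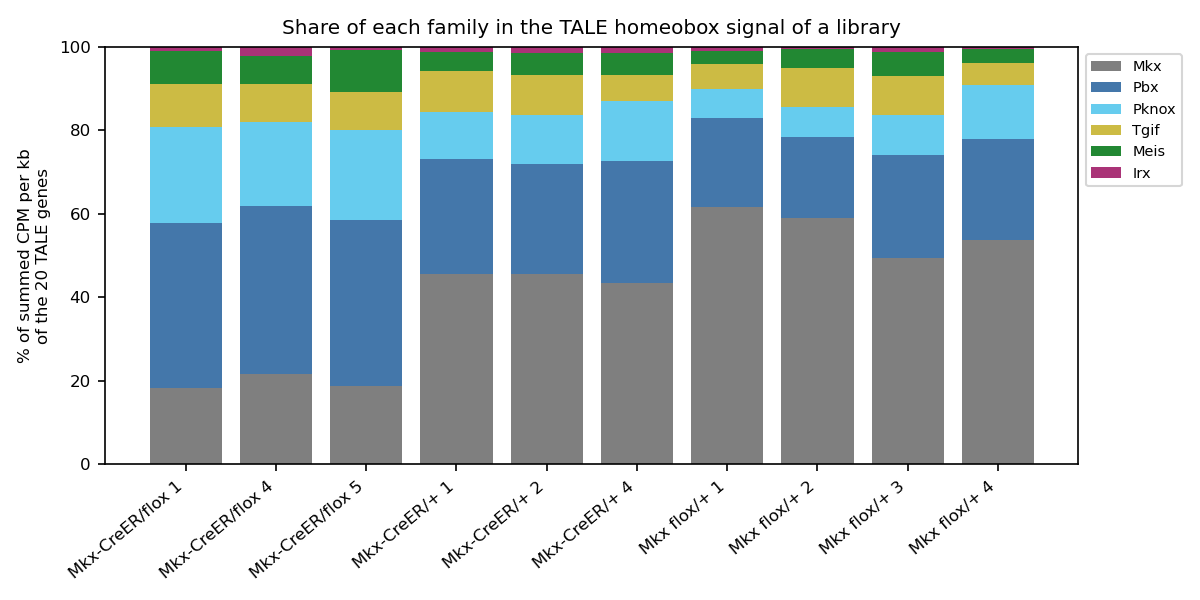
Share of each family in the summed CPM per kb of the 20 TALE genes, in percent, 1 stacked bar per library. The Mkx share is 18.2 to 21.7% in the Mkx-CreER/flox libraries, 43.4 to 45.7% in Mkx-CreER/+ and 49.4 to 61.8% in Mkx flox/+, and the other families fill the remainder.

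The second question was whether any relative changed when Mkx was reduced. Of the 9 members, 6 passed the filter on low counts (Tgif1, Pbx3, Meis1, Meis2, Meis3 and Irx3), and the filter took in genes through any 1 genotype in which they were high enough. None of the 6 was called at an adjusted p under 0.05 by edgeR's quasi-likelihood test in any of 4 comparisons. Against both controls edgeR called 4.65% of the 16017 genes tested (3.03% higher and 1.62% lower in Mkx-CreER/flox), and 20.7% had an unadjusted p under 0.05, as did 1 of the 6 members, Tgif1. DESeq2 called 0 of the 6, beside 1459 of 15393 genes in all. Limma voom with quality weights called 1, again Tgif1, beside 2991 of 16017 genes in all. Against Mkx-CreER/+ edgeR called 0.00624% of all genes, with 10.7% at an unadjusted p under 0.05 and 0 of the 6 members there. DESeq2 and voom called 0 of the 6 as well, beside 126 of 12289 and 715 of 16017 genes in all. Against Mkx flox/+ edgeR called 7.27% of all genes (4.37% higher and 2.9% lower), with 23% at an unadjusted p under 0.05 and 1 of the 6 members there. DESeq2 called 0 of the 6 and voom 1, Tgif1 each time, beside 1866 of 15393 and 2853 of 16017 genes in all. Between the controls, Mkx-CreER/+ against Mkx flox/+, edgeR called 0% of all genes, and 4.98% had an unadjusted p under 0.05, as did 0 of the 6. DESeq2 and voom called 0 of the 6, beside 37 of 14151 and 0 of 16017 genes in all.

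The median log2 fold change of the 6 members was 0.06 against both controls, -0.07 against Mkx-CreER/+ and 0.04 against Mkx flox/+, beside 0.02, 0.03 and 0.01 for all genes tested. Between Mkx-CreER/+ and Mkx flox/+ the members' median was -0.23 and that of all genes 0.00. Groups that do not overlap in CPM were seen in 0 of the 6 members against both controls (6.92% of all genes), in 1 against Mkx-CreER/+ (Meis2, 12.8% of all genes) and in 1 against Mkx flox/+ (Tgif1, 19.5%). Between the controls they were seen in 2 (Irx3 and Meis2, 6.77%). All comparisons of Mkx-CreER/flox share the same 3 libraries, and each control enters 3 of the 4 comparisons.

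**Figure D3:**
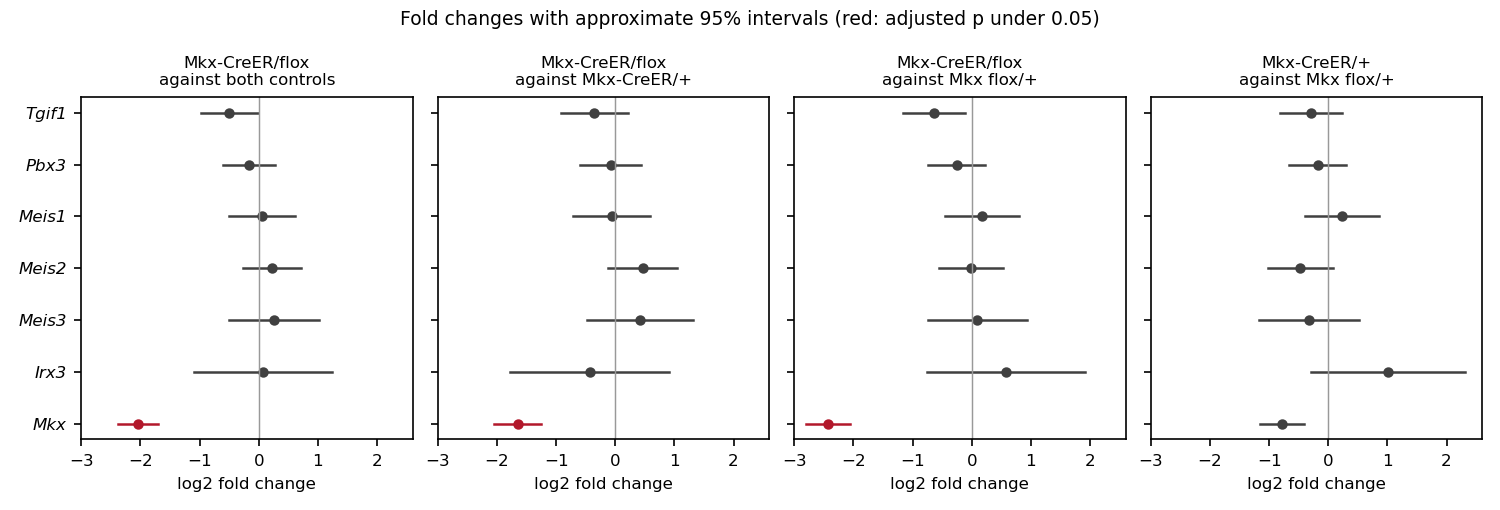
Log2 fold change (points) with its approximate 95% interval (lines) for the 6 tested members and Mkx in 4 comparisons, with red marking an edgeR adjusted p under 0.05. Mkx lies below 0 in every panel, and the members' intervals cross 0 except those of Tgif1 against both controls and against Mkx flox/+.

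Tgif1, the Smad and retinoid corepressor, had the lowest unadjusted p of the members against both controls. Its level was 19.4, 16.5 and 17.4 CPM in Mkx-CreER/flox, 26.7, 25.8 and 15.8 CPM in Mkx-CreER/+, and 23.6, 38.2, 28.8 and 20.0 CPM in Mkx flox/+. All Mkx-CreER/flox libraries lay below all Mkx flox/+ libraries, while library Mkx-CreER/+ 4 was the lowest of all 10. The log2 fold change was -0.50 against both controls (SE 0.224, interval -0.97 to -0.02, edgeR adjusted p = 0.235) and -0.64 against Mkx flox/+ (SE 0.247, interval -1.17 to -0.11, adjusted p = 0.14). It was -0.35 against Mkx-CreER/+ (SE 0.263, adjusted p = 0.669). Voom gave -0.58 (adjusted p = 0.0326) against both controls and -0.65 (adjusted p = 0.0337) against Mkx flox/+, and over the 18 alternatives the value against both controls ran from -0.60 to -0.40 with adjusted p from 0.0326 to 0.441. With the muscle score as a covariate it was -0.47 (edgeR adjusted p = 0.422). Macrophage genes fell and muscle genes rose in the same libraries, as given above, and the part of macrophages in the Tgif1 values was not tested.

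**Figure D4:**
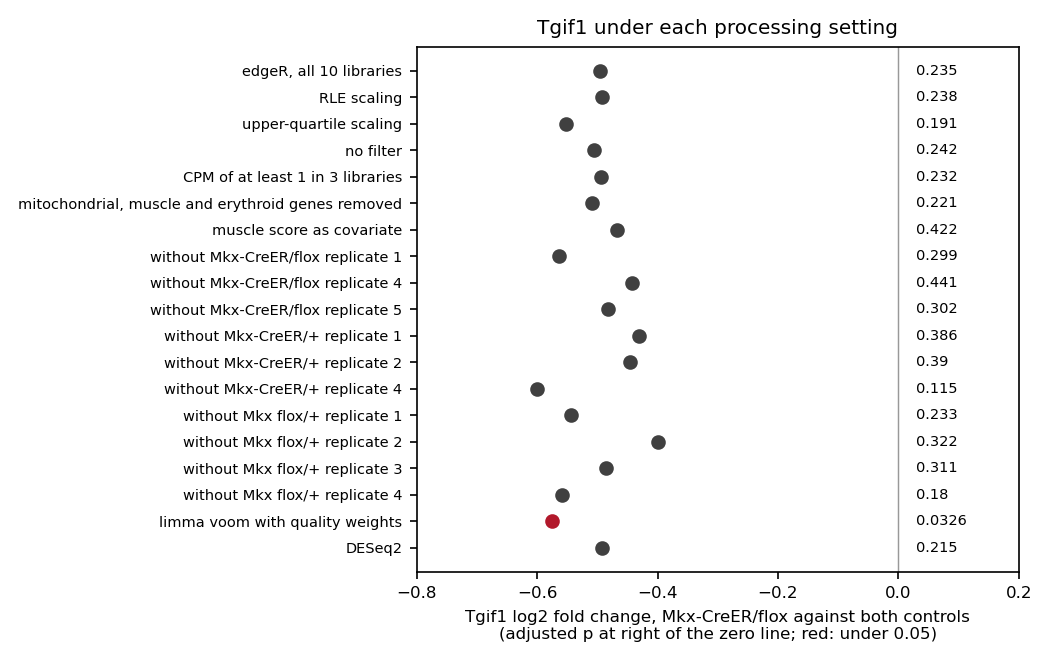
Tgif1 log2 fold change, Mkx-CreER/flox against both controls, under the edgeR fit to all 10 libraries and 18 alternatives, with the adjusted p printed beside each point. All 19 points lie between -0.60 and -0.40, and voom alone, in red, has an adjusted p under 0.05.

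The genes Tgif1 works with were followed through lists. Of 12 Smad factors and corepressor partners of Tgif1, all tested, edgeR called 0 against both controls, and 0 had an unadjusted p under 0.05. DESeq2 called 0 of the 12 and voom called 1, beside 1459 of 15393 and 2991 of 16017 genes in all. The median log2 fold change of the 12 was -0.02, beside 0.02 for all genes. Of 14 TGF-beta response genes, 3 fell and 1 rose against both controls, beside 1.62% of all genes called lower and 3.03% higher. The other 10 missed the threshold, and the median of the 14 was -0.12. Against Mkx-CreER/+ edgeR called 0 of the 14, with a median of -0.025, where it called 0.00624% of all genes. Tgfbi, an extracellular matrix adhesion protein, fell by 1.29 (log2, SE 0.196, edgeR adjusted p = 0.0138). Both chains of type I collagen fell, Col1a1 with a log2 fold change of -1.74 (SE 0.324, edgeR adjusted p = 0.0224) and Col1a2 with -1.48 (SE 0.306, adjusted p = 0.0282). Both chains are also among the tendon genes, whose summed level was lowest in Mkx-CreER/flox, and the part of TGF-beta signalling in their fall was not tested. Periostin, Postn, rose by 1.46 (SE 0.332, adjusted p = 0.0289). Without library Mkx-CreER/flox 4 none of the 14 was called by edgeR, with 4 at an unadjusted p under 0.05, and without Mkx-CreER/flox 1 the count was 0 up and 2 down.

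Of 17 retinoic acid pathway genes, all tested, edgeR called 0 against both controls, with 4 at an unadjusted p under 0.05. DESeq2 called 3 of the 17 and voom 5, beside 1459 of 15393 and 2991 of 16017 genes in all. Against Mkx flox/+ edgeR called 2 of the 17 as lower, beside 2.9% of all genes. These 2 are named here after their values were seen. Crabp1, which binds retinoic acid, fell by 2.09 (adjusted p = 0.021), and the receptor Rarg fell by 0.77 (adjusted p = 0.036). With each library left out in turn, Crabp1 lost its call in 3 of 10 fits and Rarg in 7. Without Mkx-CreER/flox 1 edgeR called 0 of the 17 as lower, with 6 at an unadjusted p under 0.05 in either direction, and without Mkx-CreER/flox 4 edgeR called 0 with 4 at an unadjusted p under 0.05.

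Pbx3, a DNA-binding partner of Meis and Hox proteins, varied little. It measured 16.2, 11.7 and 12.6 CPM in Mkx-CreER/flox, 12.8, 16.7 and 13.1 CPM in Mkx-CreER/+, and 19.9, 13.7, 17.3 and 13.3 CPM in Mkx flox/+. The groups overlapped in all comparisons. Its log2 fold change was -0.17 against both controls (SE 0.204, interval -0.60 to 0.27, edgeR adjusted p = 0.709), so that a fold between 0.659 and 1.21 was within the interval. Its standard deviation within genotypes was 0.247 on the log2 CPM scale, lower than in most tested genes (median 0.367).

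Meis1, known from blood stem cells and limb, measured 9.77, 7.32 and 5.77 CPM in Mkx-CreER/flox, 7.84, 7.41 and 8.54 CPM in Mkx-CreER/+, and 8.08, 7.16, 7.56 and 4.08 CPM in Mkx flox/+. Both the highest and the next to lowest library were Mkx-CreER/flox, and the groups overlapped. The log2 fold change against both controls was 0.05 (SE 0.262, interval -0.51 to 0.61, edgeR adjusted p = 0.935). Its sign turned with upper-quartile scaling (-0.006), with voom (-0.011), without Mkx-CreER/flox 1 (-0.16) and without Mkx flox/+ 4 (-0.03).

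Meis2, known from limb and heart development, separated the Mkx-CreER/+ libraries from all the others. It measured 9.77, 6.38 and 7.25 CPM in Mkx-CreER/flox, 5.70, 5.26 and 5.97 CPM in Mkx-CreER/+, and 7.49, 8.29, 8.70 and 6.71 CPM in Mkx flox/+. The 3 Mkx-CreER/+ values were the lowest of the 10, while the other genotypes overlapped. Meis2 had a log2 fold change of 0.46 in Mkx-CreER/flox against Mkx-CreER/+ (SE 0.27, interval -0.12 to 1.04, edgeR adjusted p = 0.581) and of -0.47 in Mkx-CreER/+ against Mkx flox/+ (SE 0.254, interval -1.01 to 0.07, adjusted p = 1), neither past the threshold. Against both controls the value was 0.23 (SE 0.229, edgeR adjusted p = 0.629), and it ran from 0.04 without Mkx-CreER/flox 1 to 0.36 without Mkx-CreER/flox 4. Within genotypes Meis2 had a standard deviation of 0.203 on the log2 CPM scale, and 13.4% of tested genes had a lower one.

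Meis3, known from hindbrain patterning in frogs and the highest Meis gene per kb here, stood out in 1 library. It measured 3.35, 4.03 and 9.02 CPM in Mkx-CreER/flox, 2.96, 4.63 and 4.63 CPM in Mkx-CreER/+, and 3.02, 6.36, 6.42 and 4.56 CPM in Mkx flox/+. Library Mkx-CreER/flox 5 was the highest of all 10, and the other libraries overlapped across genotypes. The log2 fold change against both controls was 0.26 (SE 0.355, interval -0.50 to 1.02, edgeR adjusted p = 0.742), and -0.30 without Mkx-CreER/flox 5. That library also had the highest summed level of the 12 Schwann cell genes, whereas Mkx-CreER/+ 1, the highest control in that sum, had the lowest Meis3 level of all 10. Their sums were 499.3, 1360 and 2385 CPM in Mkx-CreER/flox, 1024, 538.8 and 449.5 CPM in Mkx-CreER/+, and 694.7, 487.4, 562.2 and 874 CPM in Mkx flox/+. Of these 12 genes, 11 were tested, 2 rose against both controls (Cdh19 by 2.72, SE 0.406, edgeR adjusted p = 0.00715, and Erbb3 by 1.47, SE 0.339, adjusted p = 0.027) and 9 did not pass. EdgeR called 4.65% of all genes in that comparison. Without Mkx-CreER/flox 5 edgeR called 1 of the 11, with 2 at an unadjusted p under 0.05 against 8 in all libraries. Erbb3 lost its call in 5 of the 10 fits that left out 1 library each, with values from 0.94 to 1.84. Up to 2 of the 12 were at 0 in a Mkx flox/+ library, at most 1 in Mkx-CreER/+ and none in Mkx-CreER/flox. The part of Schwann cell RNA in the Meis3 values was not tested.

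The Hox genes with which Meis and Pbx proteins bind DNA were also counted. Of 15 listed, 14 were tested, and edgeR called 0 against both controls with 3 at an unadjusted p under 0.05. DESeq2 called 1 of the 14 and voom 4, beside 1459 of 15393 and 2991 of 16017 genes in all. The median log2 fold change of the 14 was 0.01, beside 0.02 for all genes. Against Mkx flox/+ edgeR called 1 of the 14, a share near the 7.27% called among all genes. That gene was Hoxa11, a gene of limb patterning named here after its value was seen. Hoxa11 fell by 1.03 (edgeR adjusted p = 0.031) and lost that call in 4 of the 10 fits that left out 1 library each.

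The Irx genes were the lowest members. Irx3, known from the heart and from fat tissue, passed the filter with 163 counts over the 10 libraries. It measured 0.724, 1.82 and 0.444 CPM in Mkx-CreER/flox, 1.11, 1.37 and 1.64 CPM in Mkx-CreER/+, and 0.876, 0.341, 0.853 and 0.599 CPM in Mkx flox/+. Library Mkx-CreER/flox 4 was the highest of the 10 and Mkx flox/+ 2 the lowest, and all Mkx-CreER/+ libraries lay above all Mkx flox/+ libraries. The log2 fold change was 0.07 against both controls (SE 0.548, interval -1.10 to 1.24, edgeR adjusted p = 0.962), which left any fold from 0.467 to 2.37 within the interval. Without Mkx-CreER/flox 4 it was -0.73. In Mkx-CreER/+ against Mkx flox/+ it was 1.01 (SE 0.613, interval -0.30 to 2.32, edgeR adjusted p = 1).

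Beside Irx3, the 10 adipocyte genes summed to 3248, 3892 and 1803 CPM in Mkx-CreER/flox, 5093, 3430 and 2978 CPM in Mkx-CreER/+, and 2994, 2016, 3076 and 2320 CPM in Mkx flox/+. Within Mkx-CreER/flox, library 4 was the highest and library 5 the lowest in both Irx3 and the adipocyte sum, while within Mkx-CreER/+ the order of the libraries in Irx3 was the opposite of that in the adipocyte sum. All 10 adipocyte genes were tested and none was at 0 in any library. EdgeR called 0 of them against both controls, with 1 at an unadjusted p under 0.05. DESeq2 called 1 of them and voom 0, beside 1459 of 15393 and 2991 of 16017 genes in all. The part of fat RNA in the Irx3 values was not tested.

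The remaining Irx members did not pass the filter. With no filter all 9 members were tested, and edgeR again called 0 in each comparison. Irx5, known from heart and bone, had 3, 5 and 2 counts in Mkx-CreER/flox, 5, 6 and 7 counts in Mkx-CreER/+, and 4, 5, 17 and 0 counts in Mkx flox/+, 54 in all. Irx2 had 0, 2 and 3 counts in Mkx-CreER/flox, 3, 3 and 10 counts in Mkx-CreER/+, and 6, 0, 5 and 2 counts in Mkx flox/+, 34 in all. Irx1 had 0 counts in each Mkx-CreER/flox library, 2, 5 and 0 counts in Mkx-CreER/+, and 2, 0, 0 and 0 counts in Mkx flox/+, 9 in all. A count of 0 over the 3 Mkx-CreER/flox libraries together allows up to 0.0673 CPM of Irx1 (without TMM scaling), and the pooled level was 0.129 CPM in Mkx-CreER/+ and 0.0436 CPM in Mkx flox/+. Whether these 3 genes differ between genotypes was not detectable at this depth.

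**Figure D5:**
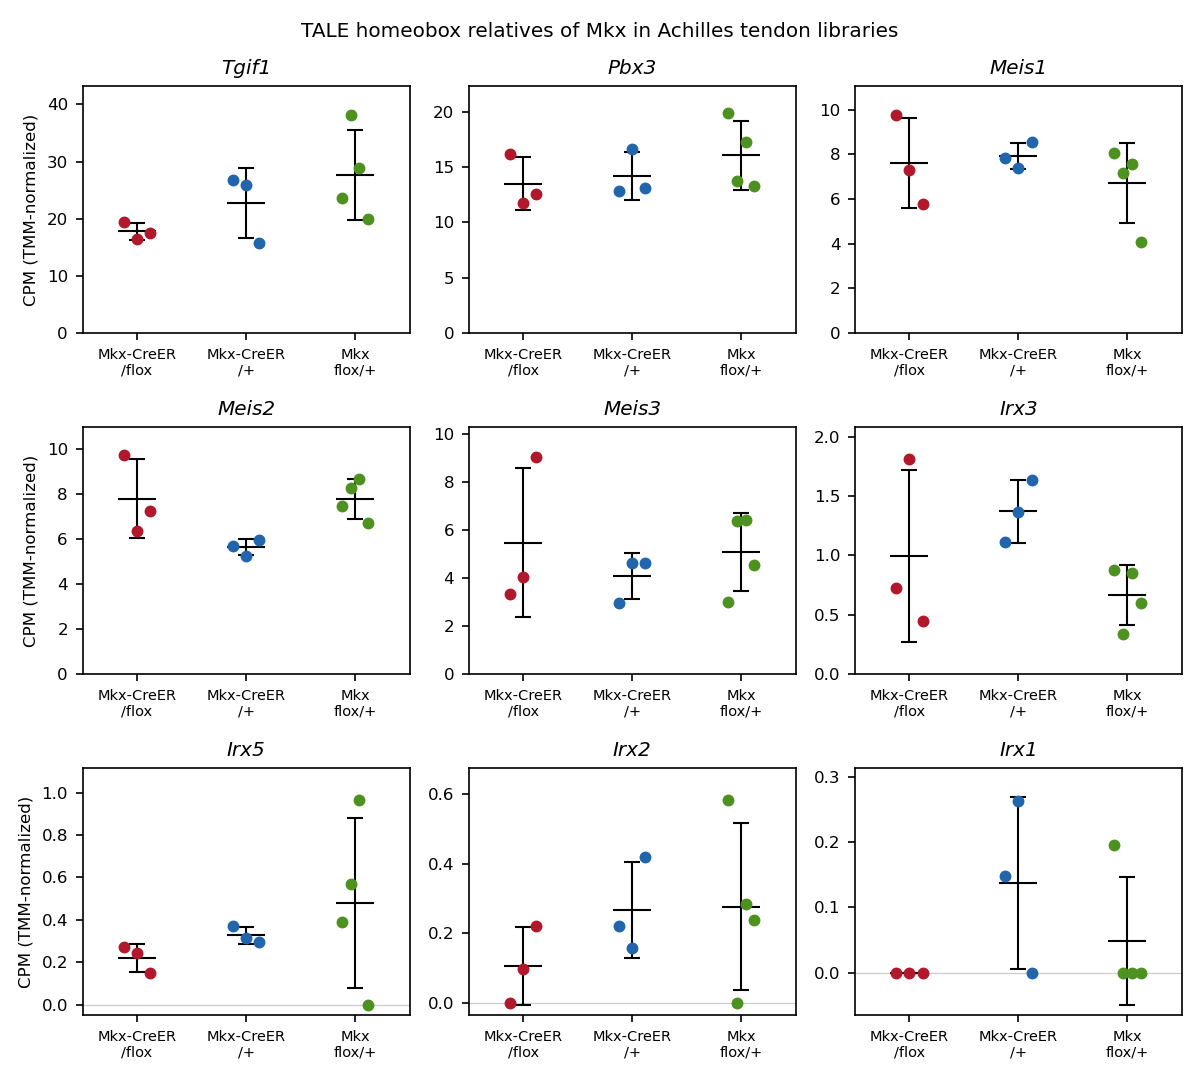
CPM of each of the 9 members, 1 point per library, with the mean (horizontal bar) and SD (error bar) of each genotype; each panel has its own linear axis. Tgif1 is lower in all Mkx-CreER/flox libraries than in Mkx flox/+, Meis2 is lowest in Mkx-CreER/+, and Meis3 and Irx3 each have 1 high Mkx-CreER/flox library.

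The other TALE genes gave a comparison for the members. Of 10, 5 were tested, and edgeR called 0 against both controls, with 1 at an unadjusted p under 0.05. DESeq2 called 0 of the 5 and voom 1, beside 1459 of 15393 and 2991 of 16017 genes in all. The median log2 fold change of the 5 was 0.20 against both controls and 0.01 against Mkx flox/+. Pknox2, a Meis-like partner of Pbx singled out after its values were seen, measured 42.3, 42.7 and 51.4 CPM in Mkx-CreER/flox, 26.7, 36.2 and 45.6 CPM in Mkx-CreER/+, and 20.3, 25.1, 26.9 and 35.7 CPM in Mkx flox/+. All Mkx-CreER/flox libraries lay above all Mkx flox/+ libraries, and library Mkx-CreER/+ 4 lay among them. The log2 fold change was 0.75 against Mkx flox/+ (SE 0.224, interval 0.27 to 1.23, edgeR adjusted p = 0.0544) and 0.54 against both controls (SE 0.202, adjusted p = 0.134). The value against Mkx flox/+ passed the threshold with no filter (adjusted p = 0.0387), in DESeq2 (adjusted p = 0.0255), in voom (adjusted p = 0.0126) and in edgeR without Mkx-CreER/+ 4 (adjusted p = 0.0479) or Mkx flox/+ 4 (adjusted p = 0.0307). With the muscle covariate it was 0.55 (edgeR adjusted p = 0.304).

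For each tested member, the 2 genes whose centred log2 CPM followed it most closely over the 10 libraries were found among 12368 candidates. These had a symbol and averaged at least 1 on that scale, leaving out predicted or numbered gene models, mitochondrial and Y-linked genes and Xist. The measure is the root mean square difference in log2 CPM. It is small for any 2 genes that both vary little, and Meis2 had the lowest standard deviation within genotypes of the tested members (0.203). Meis2 had the closest match, Ing3, at 0.095, with Krr1 at 0.116. Pbx3 was followed by Acsl5 at 0.109 and Mlh3 at 0.125, Meis1 by Ddx20 at 0.114 and Rps6kb1 at 0.126, and Tgif1 by Lifr at 0.119 and Fosl2 at 0.142. Meis3 was followed less closely by Spef1 at 0.204 and Zscan2 at 0.209. Irx3 was followed least closely, by Abcd2 at 0.35 and Lep, the adipocyte hormone leptin and a gene of the adipocyte list, at 0.386. The median difference to all candidates was 0.723 for Irx3 and 0.394 to 0.589 for the other members.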

How the data were processed

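The authors deposited 1 table of raw counts per Ensembl gene for Achilles tendon RamDA-seq libraries, a total RNA method for small inputs. Per the submitters' processing notes, fastp and STAR were used, with build mm10. Their versions, the counting tool, the strand setting and the read length were not stated there. Mkx flox/+ columns were assigned to samples by genotype and number, all others by genotype alone. Symbols, positions and exon lengths came from GENCODE vM21 (32158 identifiers had a symbol, 127 had none).

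The tests used edgeR 4.0.16 in R 4.3.3. After filterByExpr (by genotype, 16017 genes kept) and TMM scaling, counts were fitted in 1 robust quasi-likelihood model of all 10 libraries. Mkx-CreER/flox was compared with the equally weighted mean of the controls and with each control, and Mkx-CreER/+ with Mkx flox/+. P-values were Benjamini-Hochberg adjusted over all tested genes and called under 0.05. SEs and 95% intervals are approximate, from the coefficient covariance scaled by the quasi-dispersion. Some genes are not reported here. Log2 CPM used a prior count of 2. Within genotypes, chi-square per degree of freedom between library pairs was 21.7 to 108, where counting error alone gives about 1. The method was tested on simulated counts.

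The 9 members and all gene lists were chosen with earlier results of these data known. Named genes were the members, Mkx and, from other lists, up to 4 called against both controls by smallest p. Cell type genes so called and not described in the text were Kera and Fmod (tendon, fell), Mb, Tcap, Tpm2 and Des (muscle, rose), Csf1r, Tyrobp, Fcgr3 and Lyz2 (macrophage, fell), Kdr and Flt1 (endothelial, rose), Rgs5 and Abcc9 (mural, rose) and Krtdap (epidermis, fell). Of 6 tested erythroid genes edgeR called 0, with 3 at an unadjusted p under 0.05, and DESeq2 and voom called 1 each. Alternatives were DESeq2 1.42.0, voom of limma 3.58.1 with quality weights, upper-quartile or RLE scaling, no filter or a filter at 1 CPM in 3 libraries, muscle, erythroid and mitochondrial genes removed, a muscle score covariate, fits to the compared groups alone, and each library left out in turn.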

Additional observations from a re-analysis of the deposited data

Results flagged for a closer look

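Irx1 stood out in the Mkx flox/+ libraries because 1 library lay apart from its group. Library 1 held 2 counts and the other 3 held 0, so the gap from that library to the next was the whole range of the group (ratio 1.0). With counts this low, any group in which a single library holds reads gives this ratio. The 1 in 20 groups that chance marks in this way refers to continuous values, and its rate for such counts was not measured. The 2 counts are below the 3 counts taken here as the limit of detection. No other member had such a library in Mkx flox/+, and groups of 3 were not examined.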

How the results depend on the processing

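The count of members called was 0 in all 4 comparisons under every edgeR alternative and DESeq2. Under voom it was 1 (Tgif1) against both controls and 1 against Mkx flox/+. Of 450 recomputed fold changes of members, 423 kept their sign and their side of the threshold, 2 passed it and 25 turned sign. The cause was not tested. The signs that turned with a whole setting were Meis2 against Mkx flox/+ with RLE scaling (0.001), Meis1 against both controls with upper-quartile scaling (-0.006) and voom (-0.011), and Meis1 against Mkx-CreER/+ with the muscle covariate (0.022). They further were Meis3 against Mkx flox/+ with the muscle covariate (-0.037) and voom (-0.11), and Irx3 against Mkx-CreER/+ with voom (0.107).

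With 1 library left out at a time, values against both controls ran from -0.732 to 0.417 for Irx3, -0.158 to 0.218 for Meis1, 0.035 to 0.355 for Meis2 and -0.304 to 0.502 for Meis3. Against Mkx flox/+ they ran from -0.227 to 0.922 for Irx3, -0.042 to 0.335 for Meis1, -0.2 to 0.121 for Meis2 and -0.464 to 0.342 for Meis3. Against Mkx-CreER/+ they ran from -1.238 to -0.088 for Irx3, -0.275 to 0.102 for Meis1, -0.143 to 0.662 for Meis3 and -0.226 to 0.055 for Pbx3. A genotype left with 2 libraries shares the spread of all genotypes in these fits.

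Over all genes, edgeR called 744 against both controls, but between 56 (Mkx-CreER/+ 2 left out) and 1097 (Mkx-CreER/+ 4 left out) with 9 libraries, and 67 with the muscle covariate. Other libraries whose removal moved it by over 1.5 times were Mkx-CreER/flox 1 (219 genes) and 4 (64), Mkx-CreER/+ 1 (82), and Mkx flox/+ 1 (246), 2 (369) and 3 (375). DESeq2 called 1459 and voom 2991. Against Mkx flox/+ the count was 1165, with 450 (Mkx flox/+ 1 left out) to 1619 (Mkx-CreER/flox 5 left out) in 9 libraries and over 1.5 times fewer also without Mkx-CreER/flox 1 (656) or 4 (519) or Mkx flox/+ 2 (635) or 3 (577). It was 169 under the muscle covariate, 1866 in DESeq2 and 2853 in voom. Against Mkx-CreER/+ it was 1, with 9 under no filter, 126 in DESeq2, 715 in voom, and 0 to 100 with 9 libraries, the highest without Mkx-CreER/+ 4. Between the controls it was 0, with 37 in DESeq2 and 0 in voom. Of 54 member levels recomputed under other scalings, 51 moved by less than 1 SD. The scalings moved the median of all genes to between -0.044 and 0.026. The 24 other named genes kept their direction in all 431 recomputed values, and 112 of these were no longer called. The Mkx fall against Mkx-CreER/+ lost its call with only those groups fitted (-1.66, adjusted p = 0.0549) and without Mkx-CreER/flox 4 (-1.71, adjusted p = 0.0566).

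No paired analysis was possible because the count columns of Mkx-CreER/flox and Mkx-CreER/+ are numbered otherwise than the replicates in the labels. Depth limited Irx1, Irx2 and Irx5, which had 9 to 54 counts in all.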

Other observations

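The ratio of Meis2 to Meis1 was noticed after the values were seen and was not tested. On the log2 scale of CPM per kb it was -0.19, -0.39 and 0.14 in Mkx-CreER/flox, -0.66, -0.69 and -0.71 in Mkx-CreER/+, and -0.30, 0.02, 0.01 and 0.53 in Mkx flox/+. The 3 Mkx-CreER/+ libraries were the lowest of the 10.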
